A study of Zea mays with 24 samples.

Results

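The genes tip2a and tip4a encode tonoplast intrinsic proteins, the aquaporins of the vacuolar membrane in vegetative plant tissue. Their transcripts were followed across 8 groups of maize seedlings that differed in inbred line and water supply. Every probe set whose annotated symbol, current symbol or synonym was tip2a or tip4a was taken. These are 2 of the 1108 genes named on the array, with 1 probe set each, out of 17621 probe sets for genes. Both were among the 12111 that passed a filter on dim probe sets. The gene tip2a is now also called TIP2-1 (GRMZM2G027098) and tip4a is also called TIP4-1 (GRMZM2G103945). The pair was selected on its own signals: its differences between the groups of these same arrays were already known. Its values are therefore given as a description, without a test. Tests are given only for the other aquaporin genes.

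RNA came from shoots of seedlings at the 3-leaf stage of the inbred lines Han21 and Ye478, although the extraction protocol speaks of mesocotyls. Groups of each line were control plants, plants in moderate drought, plants in severe drought and re-watered plants. Each of the 8 groups had 3 arrays titled as biological replicates, 24 arrays in total. The labels state neither the water content of the soil nor how long a treatment lasted. The series text speaks of separate experiments, 2 in number, so what the replicates cover is uncertain and the p-values below measure only the spread between these arrays. In a bulk tissue sample, fewer cells of a type and less RNA per cell cannot be told apart.

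Aquaporins are channel proteins that let water cross membranes along its gradient. Plants have several subfamilies of them. Plasma membrane intrinsic proteins (PIPs) set the water permeability of the cell surface, and tonoplast intrinsic proteins (TIPs) that of the vacuole, which fills most of a grown plant cell. Nodulin-26-like intrinsic proteins (NIPs) also carry small solutes such as silicic acid, and small basic intrinsic proteins (SIPs) lie in internal membranes. In Arabidopsis, TIP2 proteins also pass ammonia and TIP4;1 passes urea. Vegetative TIPs are distinct from the TIP3 proteins, which are known from the protein storage vacuoles of seeds.

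The signals, in array units on a linear scale, were scaled by the authors to the same trimmed mean on each array. The median signal of an array was 154.4 to 192.9 units, and the level of the filter, the 40th percentile of an array, was 72.6 to 106.8 units. The tissue label was set against marker genes. Of 14 green-shoot names, 9 had a probe set, of which ssu1 and rbcs share 1, and 8 of the names were above the filter level on all arrays, the photosynthetic enzyme gene ppdk1 among them. The regulator gene glk1 was above it on 11 of the 24. The only root marker with a probe set, NAS1, was above it on 0 arrays. Of 11 pollen and seed names, 7 had a probe set, of which 3 were above the filter level on no array. The others were above it on some arrays: bt2 on 23, glb1 on 12, zp27 on 5 and ole1 on 3 of the 24. The summed shoot signal, over the brightest probe set per name, was lowest in severe drought. There it spanned 24275 to 31695 units in Han21 and 23458 to 29167 units in Ye478, against 39609 to 52611 units in Han21 control and 38181 to 47051 units in Ye478 control. The ratio of 3′ to 5′ signal, a measure of RNA integrity, was higher in some of its 7 control pairs and lower in others in each comparison of a pair of groups. For the first actin pair it averaged 1.03 ± 0.32 in severe drought against 1.87 ± 0.16 in control in Han21, and 1.13 ± 0.36 against 2.03 ± 0.24 in Ye478 (log2, SD, n = 3). The part of tissue composition and RNA integrity in the values below was not tested.

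In Han21, tip2a was brightest after re-watering and dimmest under drought. Its signals on replicates 1, 2 and 3 were 2068, 1003 and 771 units in Han21 control. Under moderate drought they were 240, 188 and 160 units, and under severe drought 293, 153 and 262 units. All 6 drought arrays thus lay below all 3 control arrays, as for 22.2% of the 12111 tested probe sets in Han21. The drought levels overlapped each other. After re-watering the signals were 3585, 3445 and 3049 units. These 3 arrays were the brightest of the 24 for tip2a and did not overlap any other group. The control arrays were uneven, with replicate 1 at more than the level of the other two together.

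In Ye478, tip2a followed a course of similar shape at lower levels. Its signals were 500, 460 and 338 units in Ye478 control. They were 249, 136 and 122 units under moderate drought and 154, 124 and 136 units under severe drought. Again all drought arrays lay below all control arrays, as for 25.7% of the tested probe sets in Ye478. After re-watering they were 723, 422 and 845 units, so replicate 2 of the re-watered group lay inside the range of the controls.

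The order of the 8 groups for tip2a ran from re-watered Han21 (3360 ± 278 units, SD, n = 3) down through Han21 control (1281 ± 692), re-watered Ye478 (663 ± 218) and Ye478 control (433 ± 84.5). Severe drought in Han21 (236 ± 73.4), moderate drought in Han21 (196 ± 40.4), moderate drought in Ye478 (169 ± 69.4) and severe drought in Ye478 (138 ± 15.2) came last. Re-watered Han21 stood clear of Han21 control, and Ye478 control stood clear of the drought groups. Han21 control and re-watered Ye478 overlapped, as did re-watered Ye478 and Ye478 control. The 4 drought groups each overlapped the next in the order. All 24 arrays had tip2a above the filter level.

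For tip4a the order was different, since the re-watered groups were the dimmest. Its signals were 851, 692 and 851 units in Han21 control. They were 627, 509 and 574 units under moderate drought and 625, 541 and 607 units under severe drought. The drought levels overlapped each other, and the highest of them, 627 units, was below the lowest control, 692 units. In Han21, 22.2% of tested probe sets had every drought array below every control. After re-watering the signals were 16.8, 18.5 and 24.9 units, all under the filter level.

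In Ye478 the signals of tip4a were 595, 561 and 608 units in control. Under moderate drought they were 213, 156 and 393 units, and under severe drought 148, 95.6 and 175 units. All drought arrays lay below all controls, as for 25.7% of tested probe sets in Ye478. Replicate 3 of moderate drought was the brightest drought array. After re-watering they were 13.2, 31.3 and 18 units, again all under the filter level. The 6 re-watered arrays of the 2 lines were the only arrays on which tip4a was under it, against 18 above.

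By group mean, tip4a was highest in Han21 control (798 ± 92.1 units, SD, n = 3), which did not overlap the next group. Severe drought in Han21 (591 ± 44.4), Ye478 control (588 ± 23.8) and moderate drought in Han21 (570 ± 59.2) followed and overlapped in turn. Moderate drought in Ye478 (254 ± 124) and severe drought in Ye478 (140 ± 40.4) came next, clear of the groups above but not of each other. Re-watered Ye478 (20.8 ± 9.39) and re-watered Han21 (20.1 ± 4.3) overlapped and stood clear below all others.

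**Figure D1:**
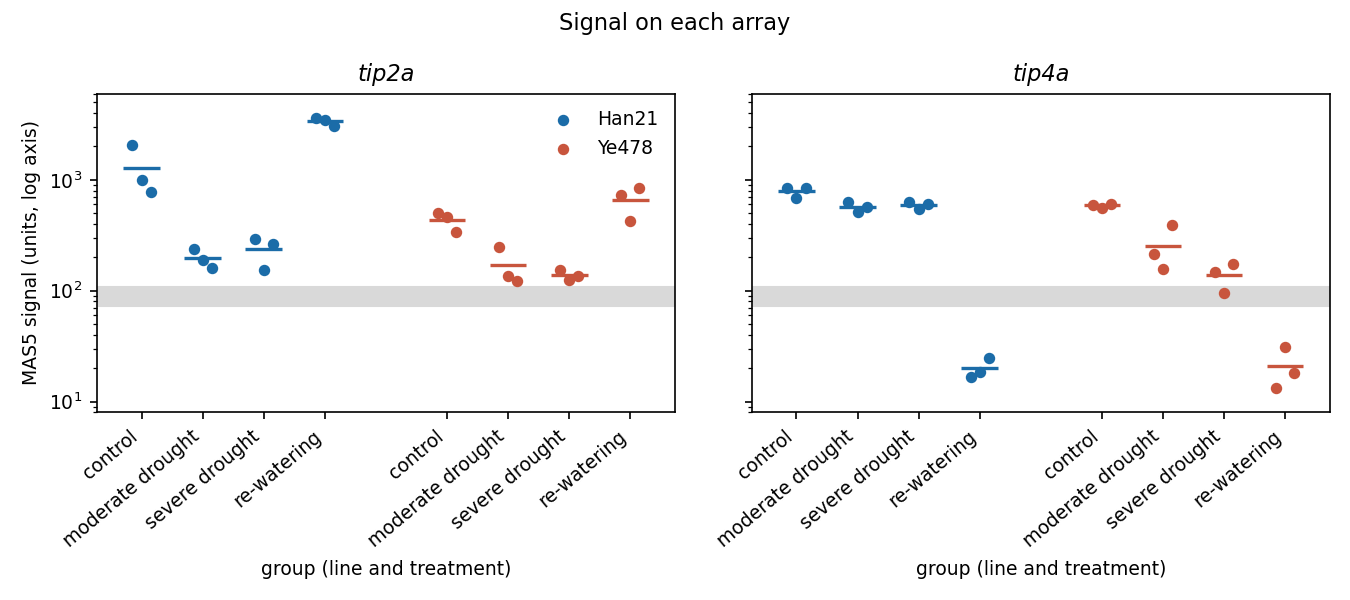
Signal of tip2a and tip4a on each of 24 arrays (points; vertical log axis in array units), with the mean of 3 arrays per group as a horizontal line and the range of the filter level, 72.6 to 106.8 units, as a grey band. The tip2a panel has its highest points in re-watered Han21, and the tip4a panel has the 6 re-watered arrays alone below the band.

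Differences are given as log2 of the first-named group over the other, on the log2 scale of signal plus 4.58 units, with the standard error of a model of all 24 arrays. A probe set is called when its limma p-value, adjusted by Benjamini-Hochberg over the 12111, is under 0.05. Moderate drought differed from control by -2.57 ± 0.32 for tip2a in Han21, where 41.3% of all tested probe sets were called, and by -1.38 ± 0.32 in Ye478, where 48.6% were called. Severe drought differed from control by -2.34 ± 0.32 for tip2a in Han21 (57.5% called) and by -1.60 ± 0.32 in Ye478 (63.6% called). The arrays of the groups did not overlap in any of these comparisons. Severe minus moderate drought was 0.23 ± 0.32 in Han21 and -0.21 ± 0.32 in Ye478 and the arrays of the drought levels overlapped in each line, while 18.0% and 23.9% of tested probe sets were called there.

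For tip4a the drought differences were small in Han21 and larger in Ye478. Moderate drought minus control was -0.48 ± 0.27 in Han21 and -1.30 ± 0.27 in Ye478. Severe drought minus control was -0.43 ± 0.27 in Han21 and -2.08 ± 0.27 in Ye478. The groups did not overlap in any of these comparisons, although in Han21 the sizes were only 1.40-fold and 1.34-fold. Severe minus moderate drought was 0.05 ± 0.27 in Han21 and -0.78 ± 0.27 in Ye478, and the arrays overlapped in each line. Taken by replicate number, the Ye478 difference was between -1.15 and -0.51 in all 3 pairs.

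After re-watering the genes lay on opposite sides of control. Re-watered minus control was 1.51 ± 0.32 for tip2a in Han21, without overlap, in a comparison in which 35.0% of all tested probe sets were called. It was 0.57 ± 0.32 in Ye478, with overlap, where 28.3% were called. Every re-watered array lay above every control for 20.6% of tested probe sets in Han21. By replicate number the 3 differences of tip2a were 0.79, 1.78 and 1.98 in Han21, and 0.53, -0.12 and 1.31 in Ye478. For tip4a, re-watered minus control was -5.03 ± 0.27 in Han21 and -4.61 ± 0.27 in Ye478. Because the re-watered signals were under the filter level, these sizes depend on the constant that was added. Taking the filter level in place of the dim signals, control exceeded re-watering at least 8.48-fold in Han21 and at least 6.43-fold in Ye478. Each re-watered array of tip4a lay below every control of its line, as for 25.1% of tested probe sets in Han21 and 24% in Ye478.

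Measured from severe drought, re-watered plants had 3.85 ± 0.32 more tip2a in Han21 (64.8% of tested probe sets called) and 2.17 ± 0.32 more in Ye478 (65.6% called), in log2 units. For tip4a, re-watered minus severe drought was -4.60 ± 0.27 in Han21 and -2.53 ± 0.27 in Ye478. Without replicate 2, the Ye478 value was -3.05. Severe drought exceeded re-watering at least 6.31-fold in Han21 and at least 1.52-fold in Ye478, by the same bound. These comparisons share the re-watered arrays with those against control.

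**Figure D2:**
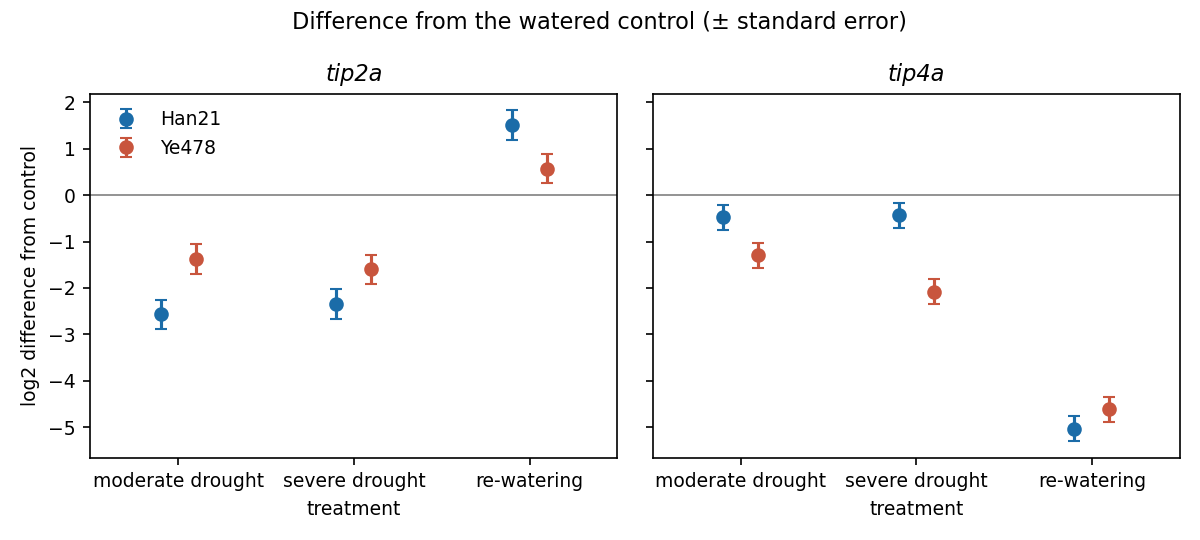
Log2 difference from the control of the same line for tip2a (left) and tip4a (right) in the 3 treatments; points are model estimates from 3 arrays per group and bars are standard errors. For tip2a drought lies below 0 and re-watering above it, while for tip4a re-watering lies at -5.03 in Han21 and -4.61 in Ye478.

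The lines were compared in the level of each gene in control and in its change from control. In control plants, tip2a was 1.45 ± 0.32 higher in Han21 than in Ye478 on the log2 scale and tip4a was 0.43 ± 0.27 higher. The arrays did not overlap for either gene, but the share of tested probe sets without overlap was not counted for this comparison. Called there were 32.6% of tested probe sets. The difference of the lines in their change from control, Han21 minus Ye478, was -1.19 ± 0.46 for tip2a under moderate drought, where 8.15% of tested probe sets were called. Under severe drought it was -0.74 ± 0.46 (16.2% called) and after re-watering 0.94 ± 0.46 (13.7% called). Without replicate 1, whose Han21 control array was the brightest of its group, the moderate drought value was -0.73 and the severe drought value -0.54. The re-watering value was 0.47 without replicate 2. For tip4a the same differences were 0.82 ± 0.38 in moderate drought and 1.65 ± 0.38 in severe drought. No difference is given after re-watering, where tip4a was under the filter level in each line. Without replicate 3 the moderate drought value was 1.20, and without replicate 2 the severe drought value was 1.41. Under drought tip2a was thus further below its control in Han21 and tip4a in Ye478, as values without a test.

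The other aquaporins were set beside these courses. The list held 26 genes with a probe set besides tip2a and tip4a, of which 23 were tested. They were all 10 PIPs, 5 of 8 TIPs, all 5 NIPs and all 3 SIPs. TIP1-2, TIP2-3 and TIP5-1 did not pass the filter. Each gene was represented by its brightest probe set. Background for their counts is the share of tested probe sets called in the same comparison.

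Among the other TIPs, the closest relative by name, TIP2-2 (tip2b), fell under drought in Han21 as well. Its signals were 72.6, 71.3 and 51.9 units under moderate drought and 75.4, 76.5 and 50.9 units under severe drought, against 241, 189 and 139 units in Han21 control. The control exceeded moderate drought at least 2.12-fold and severe drought at least 2.25-fold, with adjusted p of 0.00311 and 0.00256 by limma. After re-watering it was at 187, 184 and 178 units, inside the range of the controls, a log2 difference of -0.02 ± 0.37 that was not called (adjusted p = 0.977). In Ye478, TIP2-2 was under the filter level on all arrays of control, drought and re-watering. In control plants it was higher in Han21 than in Ye478 by at least 1.86-fold (adjusted p = 1.6e-05), the same direction as tip2a.

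TIP4-4 (tip4d), the other tested TIP4 gene, was bright enough in Ye478 only. It had 22.8, 35.4 and 38.8 units under moderate drought and 6.09, 14.9 and 26.9 units under severe drought, against 163, 118 and 128 units in Ye478 control. The control exceeded these at least 1.62-fold and 1.75-fold (adjusted p = 0.000119 and 4.26e-07). Unlike tip4a it was at 89.4, 102 and 92.8 units after re-watering, which was -0.50 ± 0.36 from control and not called (adjusted p = 0.332). TIP1-1 had 4201, 4955 and 3871 units in re-watered Han21 against 5715, 6318 and 4720 units in control. That difference of -0.36 ± 0.14 sat at the threshold (adjusted p = 0.05 as rounded, called) and had adjusted p up to 0.206 when 1 replicate was left out.

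TIP3-1 rose under severe drought in each line and under moderate drought in Ye478, and TIP3-2 rose under severe drought in Ye478. TIP3-1 was at 331, 885 and 1108 units in Han21 severe drought, against 45.1, 26.8 and 42.2 units in control, at least 6.67-fold more (adjusted p = 1.8e-06). In Ye478 it was at 11426, 11325 and 8546 units in severe drought, against 68.2, 80 and 33.3 units in control, at least 101-fold more (adjusted p = 1.67e-10). TIP3-2 rose in Ye478 severe drought to 1248, 860 and 1547 units, against 29.1, 25.1 and 29 units in control, at least 11.6-fold more (adjusted p = 2.69e-11). In Han21 it stayed under the filter level and was not called (adjusted p = 0.652). Among the 7 pollen and seed markers, the signal of glb1, which encodes a globulin of the embryo, was also higher in severe drought. It spanned 963 to 1403 units in severe drought against 2.96 to 15.9 units in control in Han21, and 1282 to 1796 against 13 to 25.1 units in Ye478. In Ye478 moderate drought glb1 spanned 280 to 447 units, and TIP3-1 was at 3201, 1684 and 2726 units. TIP3-1 was called higher than control there (adjusted p = 5.85e-08 by limma). In Han21 moderate drought glb1 spanned 278 to 357 units, while TIP3-1 was at 92.9, 35.5 and 31.9 units. In re-watered Ye478 glb1 spanned 47.5 to 87.4 units, under the filter level, while TIP3-1 was at 1203, 1687 and 752 units. The oil body gene ole1 spanned 121 to 168 units in Ye478 severe drought against 4.87 to 13.8 units in control, and was under the filter level in those Han21 groups. The summed signal of the 6 markers other than glb1 spanned 196 to 223 units in severe drought against 255 to 310 units in control in Han21, and 371 to 412 against 337 to 438 units in Ye478. The summed signal of all 7 spanned 1187 to 1604 against 271 to 313 units in Han21 and 1693 to 2184 against 350 to 458 units in Ye478. The part of these markers in the TIP3 values was not tested.

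PIP genes moved in either direction under drought. In moderate drought 5 of 10 fell and 1 rose in Han21, where 22.0% and 19.3% of all tested probe sets were called lower and higher, and 2 fell and 2 rose in Ye478 (25.0% and 23.6%). In severe drought 4 fell and 2 rose in Han21 (28.7% and 28.8%), and 2 fell and 3 rose in Ye478 (33.3% and 30.3%). Most of these counts of 10 genes are near those shares, and the difference between the lines was not tested. PIP2-5, among those that fell in Han21, was under the filter level in control and in each drought level. With the replicate number as a block, 2 PIPs rose in Han21 moderate drought (PIP1-3 was added), 4 in Ye478 moderate drought (PIP1-5 and PIP2-3) and 5 in Ye478 severe drought (PIP1-2 and PIP2-3). Without replicate 2, 1 PIP fell and 0 rose in Han21 moderate drought, and 1 fell and 0 rose in Ye478 moderate drought. Without replicate 1, 3 fell and 0 rose in Han21 moderate drought, and 1 fell and 1 rose in Ye478. Without replicate 3, 0 rose in Han21 moderate drought and 1 fell in Ye478. In severe drought, 1 rose in Han21 without replicate 2 or 3, and in Ye478 1 fell without replicate 1. PIP2-4 fell in each line under severe drought, by 0.74 ± 0.17 in Han21 and by 2.25 ± 0.17 in Ye478 on the log2 scale (adjusted p = 0.000664 and 1.63e-10). PIP1-1 rose by 0.53 ± 0.12 and 0.60 ± 0.12 (adjusted p = 0.000579 and 0.00013).

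Across all 23 genes, 2 were higher and 12 lower in Han21 moderate drought, where 19.3% and 22.0% of all tested probe sets were called higher and lower. In Han21 severe drought 5 were higher and 11 lower, against 28.8% and 28.7% of probe sets. In Ye478 moderate drought 6 were higher and 6 lower (23.6% and 25.0%), and in Ye478 severe drought 8 and 8 (30.3% and 33.3%). Some of these calls compared groups that were both wholly under the filter level. They were PIP2-5 and TIP4-4 in each Han21 drought level and TIP2-2 in Ye478 severe drought, all called lower. PIP1-5, called higher in Ye478 severe drought, averaged 72.9 units there and 37.4 units in control, where it was under that level. The median difference of the 23 was -0.42 in Han21 moderate drought and -0.19 in severe drought, beside -0.01 and 0.03 for all tested probe sets. In Ye478 it was 0.10 and 0.06, beside 0.01 and -0.02. With the arrays centred on their medians, the share of higher among all called probe sets rose in each of these comparisons. In Han21 it was 57.6% in place of 46.7% in moderate drought and 57.7% in place of 50.1% in severe drought. In Ye478 it was 60.3% in place of 48.6% in moderate drought and 59.5% in place of 47.6% in severe drought. Leaving out 1 replicate of each group changed some counts of aquaporins. In Han21 moderate drought the 12 lower genes became 6 without replicate 2, and the 2 higher ones, PIP1-1 and SIP1-1, became 0 whichever replicate was left out. In Han21 severe drought the 5 higher genes became 3 without replicate 3.

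All 5 NIP genes were called in severe drought in each line, with 4 lower and 1 higher in Han21 and 3 lower and 2 higher in Ye478, where 57.5% and 63.6% of all tested probe sets were called. The higher gene of Han21, NIP3-1 (0.58 ± 0.21, adjusted p = 0.0209), lost its call without replicate 3 (adjusted p = 0.2). NIP2-3 (Lsi6, which in rice passes silicon) had 156, 154 and 137 units in Han21 severe drought against 1317, 887 and 1023 units in control (adjusted p = 1.67e-08). In Ye478 the control of NIP2-3 exceeded severe drought at least 2.89-fold (adjusted p = 3.42e-06). NIP1-1 fell by 1.71 ± 0.16 in Han21 and by 1.77 ± 0.16 in Ye478 (adjusted p = 7.77e-09 and 3.1e-09). NIP2-2 differed between the lines in direction, with -1.11 ± 0.23 in Han21 and 0.89 ± 0.23 in Ye478 (adjusted p = 0.000316 and 0.00191). The difference between the lines itself was called (-2.00 ± 0.33, adjusted p = 0.0002).

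Most PIP genes were higher after re-watering than in control. In each line 8 of 10 were called higher and the other two were not called, where 15.7% of all tested probe sets were called higher in Han21 and 12.0% in Ye478. Those not called were PIP1-3 and PIP1-2 in Han21 and PIP2-1 and PIP1-2 in Ye478. PIP2-1 in Ye478 had an adjusted p of 0.0673, and of 0.00969 with the replicate number as a block. Leaving out 1 replicate ended the calls of PIP2-1, PIP2-2 and PIP2-4 in Han21, with adjusted p up to 0.125, 0.0544 and 0.122. In Ye478 it ended those of PIP2-2, PIP2-3 and PIP2-4, with adjusted p up to 0.103, 0.195 and 0.183. Without replicate 1, 2 or 3, the PIPs called higher were 8, 5 and 6 of 10 in Han21. They were 7, 5 and 7 of 10 in Ye478. PIP1-5 was at 3028, 4488 and 4183 units in re-watered Han21 against 353, 370 and 412 units in control, a difference of 3.33 ± 0.23 (adjusted p = 3.47e-10). PIP2-6 was at 730, 575 and 647 units in re-watered Han21 against 52.6, 46.9 and 26.2 units in control, at least 6.28-fold more (adjusted p = 4.17e-09). In Ye478, PIP2-6 was at 1349, 1313 and 1453 units against 54.2, 42 and 28.5 units, at least 13.4-fold more (adjusted p = 6.43e-11). PIP2-5 exceeded control at least 4.61-fold in Han21 and at least 2.83-fold in Ye478 (adjusted p = 5.33e-08 and 1.75e-08).

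Over all subfamilies 9 genes were higher and 3 lower than control in re-watered Han21, where 15.7% and 19.2% of tested probe sets were called. In Ye478, 11 were higher and 1 lower (12.0% and 16.3%). The median difference was 0.36 in Han21 and 0.47 in Ye478, beside -0.04 and -0.07 for all tested probe sets. The lower genes of Han21 were NIP1-1, SIP1-1 and TIP1-1, and they became 0 without replicate 1 and 1 without replicate 2 or 3. The lower gene of Ye478 was NIP2-3 (-1.21 ± 0.27, adjusted p = 0.00175), and the count was 2 without replicate 3 or when replicate number entered the model as a block. With the arrays centred on their medians, the share of higher among all called probe sets was 55.1% in place of 45.0% in Han21 and 60.9% in place of 42.5% in Ye478. Of the other 23 genes, 15 had signals above the filter level on all 6 control arrays, and 0 of these were under it on all 6 re-watered arrays, a pattern taken from the values of tip4a itself. Of all tested probe sets 45, or 0.372%, did so, and of those that carry a gene name only tip4a and LOC100037827. Of these 45, 28 were also above the level on all 12 drought arrays, tip4a among them.

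**Figure D3:**
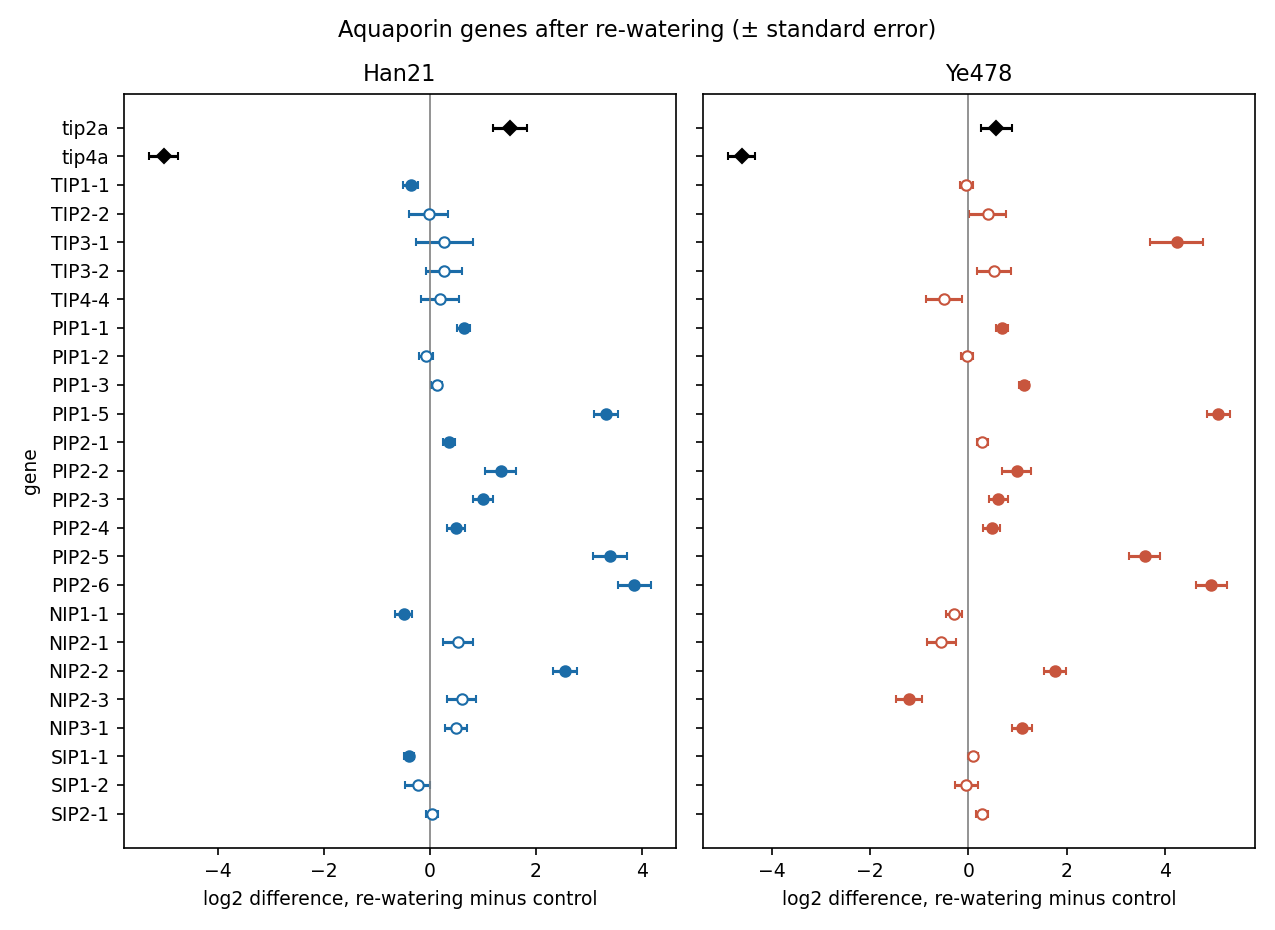
Log2 difference of re-watered plants from control in Han21 and in Ye478 for each tested aquaporin gene, by subfamily, with standard errors; filled points were called by limma at an adjusted p under 0.05, open points were not, and black diamonds are tip2a and tip4a, which were not tested. Of the 10 PIP genes, 8 were called higher in each line, while tip4a lies at -5.03 and -4.61.

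Between the lines in control, 6 of the 23 genes were higher and 4 lower in Han21 (17.2% and 15.3% of tested probe sets). PIP2-5, among the higher genes, was under the filter level in the controls of each line. Without replicate 1 the higher genes became 3. With the block the lower genes became 7. PIP1-5 was at 353, 370 and 412 units in Han21 against 46.6, 25.2 and 40.5 units in Ye478, at least 3.73-fold higher (adjusted p = 2.07e-10). NIP2-3 was at 1317, 887 and 1023 units in Han21 against 182, 182 and 349 units in Ye478, higher by 2.21 ± 0.27 on the log2 scale (adjusted p = 1.08e-06). TIP4-4 was lower in Han21, under its filter level there, with Ye478 at least 1.35-fold higher (adjusted p = 0.000365).

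In re-watered plants set against severe drought, 14 of the 23 genes were higher and 2 lower in Han21, where 32.0% and 32.9% of tested probe sets were called higher and lower. In Ye478, 14 were higher and 4 lower (31.5% and 34.1%). Among the higher genes, TIP4-4 in Han21 and TIP2-2 in Ye478 were under the filter level in both groups compared. PIP2-6 exceeded severe drought at least 7.70-fold in Han21 and at least 17.2-fold in Ye478 (adjusted p = 2.45e-10 and 9.91e-12). TIP3-1 fell, with -3.78 ± 0.54 in Han21 and -3.16 ± 0.54 in Ye478 (adjusted p = 3.29e-06 and 3.2e-05). Set against control, re-watered TIP3-1 was still at least 11.3-fold higher in Ye478 (adjusted p = 3.54e-06) and was not called in Han21 (adjusted p = 0.736).

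The change from control differed between the lines for some of the 23 genes. In moderate drought 1 was higher in Han21 minus Ye478 and 7 lower, where 4.41% and 3.74% of tested probe sets were called. In severe drought 2 were higher and 5 lower (8.71% and 7.46%), and after re-watering 1 was higher and 4 lower (6.18% and 7.56%). These counts moved when a replicate was left out. The 7 lower genes of moderate drought became 3 without replicate 1 or 3 and 1 without replicate 2. In severe drought the 2 higher genes became 1 without replicate 1 or 2 and the 5 lower ones 3 without replicate 2. After re-watering the 1 higher gene, NIP2-3, became 2 without replicate 1 or 3 and 0 without replicate 2, and it became 3 with the block. The 4 lower genes became 2 without replicate 2. PIP2-4 in moderate drought (1.64 ± 0.23, adjusted p = 9.43e-05) was called whichever replicate was left out.

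The tonoplast also carries proton pumps, and genes of its pyrophosphatase were compared as neighbours of the TIPs in the same membrane. They were added by symbol after the annotation had been read. For vpp1 the brighter of 2 probe sets gave -0.36 ± 0.12 and -0.33 ± 0.12 in moderate and severe drought in Han21 and 0.52 ± 0.12 after re-watering (adjusted p = 0.0222, 0.0278 and 0.00243). In Ye478 the values were -0.56 ± 0.12, -0.42 ± 0.12 and 0.29 ± 0.12 (adjusted p = 0.000759, 0.00511 and 0.0788), the last not called. The dimmer probe set disagreed after re-watering in Han21 (-0.01 ± 0.18, adjusted p = 0.964). The gene vpp3 rose in drought, by 0.64 ± 0.12 and 0.47 ± 0.12 in Han21 and by 0.64 ± 0.12 and 0.85 ± 0.12 in Ye478 (adjusted p = 0.000161, 0.00178, 0.000118 and 2.34e-06). After re-watering it was at -0.22 ± 0.12 in Han21 and 0.01 ± 0.12 in Ye478, neither called (adjusted p = 0.153 and 0.97). The brighter vpp1 probe set had the same signs as tip2a in these 6 comparisons, with smaller sizes. The share of all tested probe sets with these signs was not counted.

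Named genes with the most similar course were ranked by Pearson correlation of log2 signal over the 24 arrays. The arrays of a group share their treatment, so they are not independent points. For tip2a they were les22 (0.91), which encodes uroporphyrinogen decarboxylase, vdac1b (0.91), RR6 (0.90), pcna2 (0.90), sdg118 (0.90) and NNR1 (0.89). RR6 is a cytokinin response regulator, pcna2 a clamp of DNA replication and NNR1 a nitrate reductase. In Han21, NNR1 averaged 1412 units in control, 247 in moderate drought, 176 in severe drought and 3999 after re-watering. For les22 the averages in that order were 1143, 640, 596 and 1763 units. Within groups, the deviations from the group mean correlated with those of tip2a at -0.07 for les22, 0.40 for vdac1b and 0.48 for RR6. The values were 0.12 for pcna2, 0.04 for sdg118 and -0.08 for NNR1. In that order of genes, the 8 group means correlated at 0.96, 0.93, 0.92, 0.93, 0.97 and 0.93. In all, 27 of 12110 other probe sets, or 0.223%, correlated with tip2a above 0.9.

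For tip4a the most similar named genes were LOC100037827 (0.96), thi1 (0.93), ZCAX2 (0.91), ccp2 (0.90), thi1-2 (0.90) and see2b (0.88). The thi genes act in thiamine synthesis, ZCAX2 is named as a cation and proton exchanger, ccp2 encodes a cysteine protease and see2b a legumain-type vacuolar protease. LOC100037827 averaged 33 units in re-watered Han21 and 65.1 units in re-watered Ye478, against 971 and 1150 units in control. thi1 averaged 364 and 456 units after re-watering, against 8489 and 8394 units in control. The rank correlation was lower, 0.80 for LOC100037827 and 0.58 for ccp2. Within groups, the deviations of LOC100037827 correlated with those of tip4a at 0.40, of thi1 at -0.37, of ZCAX2 at 0.12, of ccp2 at -0.38, of thi1-2 at -0.43 and of see2b at 0.19. Above 0.9 lay 24 of 12110 other probe sets, or 0.198%. The log2 signals of tip2a and tip4a correlated with each other at -0.44 over the 24 arrays.

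**Figure D4:**
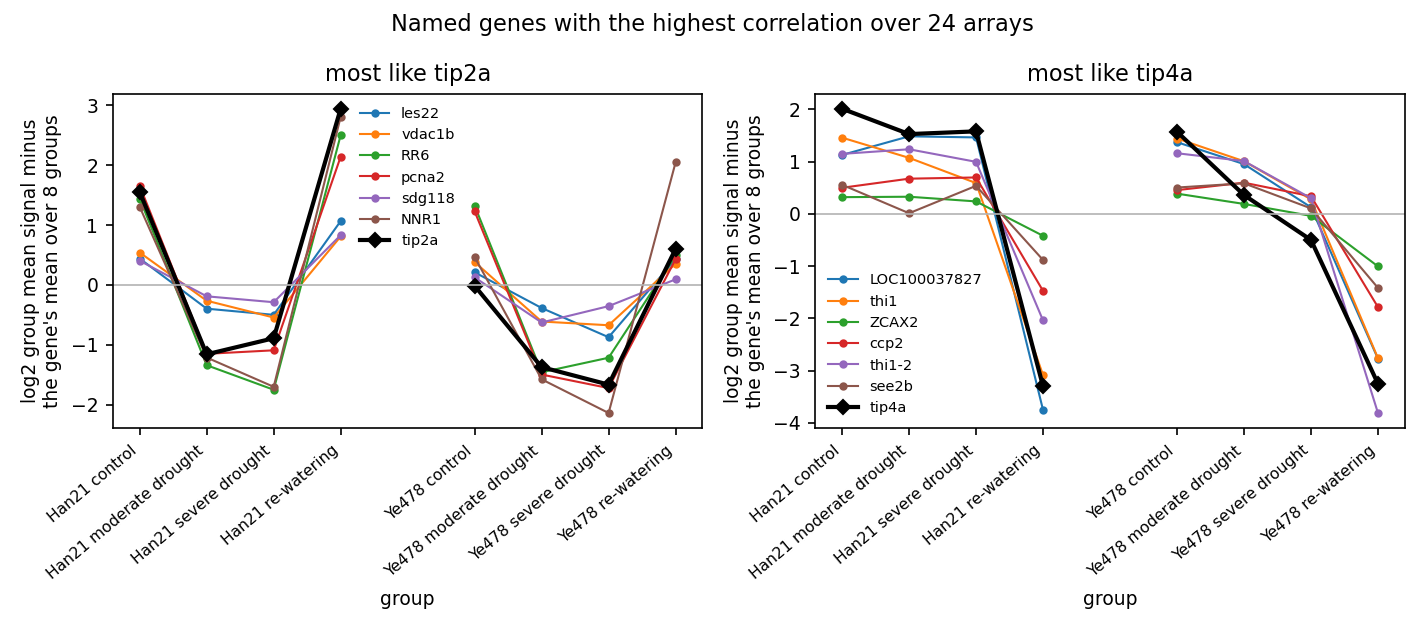
Log2 of the group mean signal minus its mean over the 8 groups, for tip2a (left) and tip4a (right, thick black lines with diamonds) and the 6 named genes most correlated with each over 24 arrays; groups run from control to re-watering, Han21 before Ye478. Genes like tip2a peak in re-watered Han21 and genes like tip4a are lowest in the re-watered groups.

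Among patterns without overlap, tip2a in Han21 had every drought array below every control and every re-watered array above every control. This held for 611 of 12111 tested probe sets, or 5.05%, among them NIP2-2, PIP2-3, PIP2-4 and PIP2-5. In Ye478, re-watered tip2a overlapped control and lacked this pattern. The pattern of tip4a, with drought and re-watered arrays all below every control, held for 753 probe sets (6.22%) in Han21, NIP1-1 among them. In Ye478 it held for 1196 probe sets (9.88%), with NIP1-1, NIP2-1, NIP2-3 and TIP4-4.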

How the data were processed

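The deposited table gives linear MAS5 signals for 17734 probe sets of an Affymetrix maize array. GCOS and MAS5 are named, without versions, per the submitters' processing notes. Biotin was the label and TRIzol the extraction reagent, per the labels' protocols. The 2% trimmed mean was 500.1 to 500.2 on each of the 24 arrays, so the authors' deposited intensity values were already scaled, and no further normalization was applied.

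After leaving out 113 control probe sets, 17621 remained. Those above the 40th percentile of the array on at least 3 arrays were tested (12111, leaving out 5510). The file gives no detection calls, so this level stands in for background. A constant of 4.58 (10th percentile of the table) was added before taking log2. A single limma model of the 8 group means used every array (eBayes with trend, 16 residual degrees of freedom, 14 contrasts), with Benjamini-Hochberg adjustment within a contrast and a threshold of 0.05. A group wholly under the filter level has only a bound: the mean log2 signal of the brighter group against the filter level of the dim arrays, written "at least". The number of arrays limits the precision. The code was tested on simulated data.

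The members and lists were chosen with earlier results of these arrays known. Genes were named by rule: tip2a and tip4a, any tested aquaporin, and the 6 named genes most correlated with each member. Gene names come from the array annotation of 2007, which gives 1 gene for 1452 probe sets, several for 1 and none for 16168, joined to RefSeq genes (Zm-B73-REFERENCE-NAM-5.0, for names only), where 1060 of 1108 genes were found. A list of tonoplast proton pumps matched 0 genes by its wording. A gene with the symbol sip1 and the synonym Zlp matched the aquaporin pattern and was left out by name.

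Titles give the groups the same replicate numbers. Equally numbered arrays deviated together from their group means in every comparison (r = 0.154 to 0.692 across probe sets), so an alternative model holds the number as a block. Other alternatives changed the scaling, constant, filter, variance model, arrays fitted and choice of probe set, or left out each replicate. Tools were R 4.3.3, limma 3.58.1, Python 3.11.15, pandas 2.3.3, numpy 2.4.6 and matplotlib 3.10.9.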

Additional observations from a re-analysis of the deposited data

Results flagged for a closer look

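These aquaporin genes differed between the lines in their change from control, by limma's test of the difference itself at an adjusted p under 0.05. Values are log2, Han21 minus Ye478. In moderate drought PIP2-4 had 1.64, PIP1-5 -1.29, NIP2-2 -1.38, PIP2-2 -1.52, PIP2-3 -0.93, SIP1-1 -0.49, TIP3-1 -4.99 and NIP2-3 -1.62. In severe drought PIP2-4 had 1.51, NIP2-2 -2.00, PIP2-2 -2.09, PIP2-3 -1.14, TIP3-1 -3.34, TIP4-4 1.70 and TIP3-2 -5.01. After re-watering PIP1-3 had -1.00, PIP1-5 -1.74, SIP1-1 -0.49, TIP3-1 -3.96 and NIP2-3 1.82.

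Of these 20 differences, 8 were called whichever replicate was left out: PIP2-4 in moderate and severe drought, TIP3-1 in moderate drought, NIP2-2, PIP2-2 and TIP3-2 in severe drought, and PIP1-3 and PIP1-5 after re-watering. The other 12 lost the call at least once, with adjusted p up to 0.48 for SIP1-1 in moderate drought. TIP4-4, the relative of tip4a by name, had an adjusted p of 0.025 in severe drought and up to 0.334 with a replicate left out. In 7 of the 20 differences at least 1 of the 4 groups was wholly under the filter level, so their sizes depend on the added constant. These are the 2 of PIP1-5, the 3 of TIP3-1, and those of TIP4-4 and TIP3-2.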

How the results depend on the processing

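Values are log2 differences for tip2a and tip4a and counts of genes or probe sets otherwise, and the cause of a move was not tested unless it follows from the setting. No difference of tip2a or tip4a from control changed sign under any alternative run. In size, 111 alternative values of tip2a and 103 of tip4a moved by less than the spread between replicates, and 1 and 9 moved by more. Against the dim re-watered arrays tip4a moved with the constant: with 4 times the constant, re-watered minus control was -4.41 in Han21 and -3.98 in Ye478, and re-watered minus severe drought -3.99 and -2.00. With no constant the Han21 values were -5.33 and -4.90. Leaving out a replicate gave 0.47 to 1.28 for the line difference of tip2a after re-watering. For tip4a it gave -3.05 to -2.24 for re-watered minus severe drought in Ye478, and 0.54 to 1.20 and 1.41 to 1.84 for the line difference in moderate and severe drought.

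Of the aquaporin counts 299 alternative values were within 1.5 times the main count and 37 were not. The 2 higher genes of Han21 moderate drought were 1 with no filter, 1 with quantile normalization, 0 when only the groups compared were fitted, 4 over all matching probe sets and 0 to 0 leaving out a replicate. With a filter at the 60th percentile, which tests fewer genes, the lower genes of Ye478 severe drought were 5, the higher genes of Han21 control over Ye478 control 3 and the higher line differences in severe drought 1. Those last were also 1 with no constant and with only the groups compared. With only the groups compared, the lower genes of re-watered Ye478 were 2 and the higher line differences after re-watering 3. Over all matching probe sets, the lower genes of Han21 control over Ye478 control were 7, the higher line differences in moderate drought 2 and the lower ones after re-watering 7.

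With the replicate block, the lower genes of re-watered Ye478 were 2, of Han21 control over Ye478 control 7, and the higher line differences after re-watering 3. Probe sets called for a line difference were then 1607, 3039 and 2906 in moderate drought, severe drought and after re-watering, in place of 987, 1959 and 1665. The block ended no call of a tested aquaporin gene and moved no other count over the 23 genes or over all probe sets by over 1.5 times, while counts within a subfamily, such as the PIPs that rose under drought, moved by more.

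Leaving out a replicate, the lower aquaporin genes were 6 to 9 in Han21 moderate drought, 0 to 1 in re-watered Han21 and 1 to 2 in re-watered Ye478. The higher ones were 3 to 5 in Han21 severe drought and 3 to 4 for Han21 over Ye478 in control. Lower line differences were 1 to 3, 3 to 6 and 2 to 3 in the 3 treatments, and higher ones 1 to 2 in severe drought and 0 to 2 after re-watering. Probe sets called were 3075 to 4217 in Han21 moderate drought, 2195 to 3237 in re-watered Han21, 1698 to 2589 in re-watered Ye478 and 2470 to 3223 between the lines in control. For line differences they were 264 to 564, 601 to 1404 and 295 to 1260.

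Median centring moved the median of all tested probe sets by over 0.1 in several comparisons, most in Ye478 severe drought, from -0.02 to 0.18. The median moved from 0.01 to 0.13 in Ye478 moderate drought and from -0.07 to 0.08 in re-watered Ye478. In Han21 severe drought it moved from 0.03 to 0.14. Among line differences in severe drought, 40.2% of calls were then higher in place of 53.9%. Keeping sip1, an alternative chosen after seeing the data, moved no aquaporin count by over 1.5 times. Without detection calls, signals under the filter level give only bounds.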
